A study of Homo sapiens with 12 samples.

Results

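The genes described here are the 10 syndecan and glypican genes, which encode the core proteins of the cell-surface heparan sulfate proteoglycans. The 4 syndecans (SDC1 to SDC4) and 6 glypicans (GPC1 to GPC6) were found by their Ensembl identifiers among the 61552 gene identifiers of each count file. Of the 10, 8 had enough counts to be tested, among 18646 genes tested in all, and GPC5 and GPC6 did not. The study used RD, an established cell line of embryonal rhabdomyosarcoma (ERMS, fusion-negative, FN-RMS), a tumour whose cells resemble immature skeletal muscle. One group received EHMT1-specific siRNA (siEHMT1, n = 3 libraries) and its control received scrambled siRNA (siScr, n = 3 libraries). Both were transfected with Lipofectamine RNAiMAX, and total RNA was taken 48 h later. A single line stands for the tumour here, siRNA lowers a transcript without deleting the gene, and how many different EHMT1 siRNAs were used is not given in the sources used here. EHMT1, also called GLP, is a histone H3 methyltransferase, and the series title ties it to the transcription factor SOX8 and to cell motility. The other 6 of the 12 samples, from an experiment with SOX8 siRNA, were not analysed here.

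A syndecan crosses the membrane once and carries heparan sulfate, and in some members chondroitin sulfate, on its outer part, while its short inner tail binds kinases and PDZ-domain adaptors. A glypican has no inner part: a lipid (GPI) anchor holds it in the outer face of the membrane, with its heparan sulfate chains close to the surface. The chains bind growth factors, morphogens such as Wnt and Hedgehog ligands, and matrix proteins, so these genes set what a cell can adhere to and respond to. In mouse muscle, SDC3 and SDC4 mark satellite cells, the stem cells of the fibre.

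The libraries held 40639655 to 47258481 gene counts each. EHMT1 (ENSG00000181090) lay at 53.2, 54.4 and 57.6 CPM, a gene's count relative to the TMM-adjusted size of its library, in the siEHMT1 libraries, against 130.9, 155.9 and 130.1 CPM in the siScr libraries, so the libraries matched their labels. SOX8 (ENSG00000005513) was also lower, with a log2 fold change of -0.44 (SE 0.065, edgeR adjusted p = 0.000305). The 12 muscle and rhabdomyosarcoma markers checked summed to 1721 to 1796 CPM in siEHMT1 libraries and 1534 to 1734 CPM in siScr libraries, and MYF5 was at 0 in all 6 libraries while MYOD1, DES and MYOG were present. Of the 11 muscle markers tested, CHRNG and PAX7 rose and 0 fell, and their part in the results for the proteoglycans was not tested. Epithelial, endothelial and blood cell markers summed to at most 5.45, 2.79 and 1.12 CPM in any siEHMT1 library and at most 4.85, 2.01 and 1.58 CPM in any siScr library. Libraries of the siScr group differed more among themselves (chi-square per degree of freedom 9.04 to 21.4) than those of the siEHMT1 group (2.99 to 3.39), and siScr replicate 2 had the highest mitochondrial share of counts, 5.41%, against 4.29% to 4.83% in the other 5 libraries. In bulk RNA, fewer cells that express a gene and less RNA per cell cannot be told apart.

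The question of the comparison was which of these core protein transcripts differed after EHMT1 siRNA. SDC1 and SDC4 fell, with log2 fold changes of -0.43 (SE 0.066) and -0.30 (SE 0.072), which left 74.3% and 81.4% of their scrambled siRNA levels. No member rose. SDC3, the most abundant syndecan, lay 0.19 lower on the log2 scale in the same direction but just missed the test, and the remaining members were nearer to 0 or too low to measure closely. Of the 8 tested, 2 fell and 0 rose (edgeR quasi-likelihood test, adjusted p under 0.05), where 6.54% of all genes tested fell and 5.81% rose. At an unadjusted p under 0.05, 3 fell and 0 rose, beside 13.2% and 12.4% of all genes tested. DESeq2, which gave an adjusted p for 7 of the 8, called 3 fallen and 0 risen (9.19% and 6.85% of all genes), and limma-voom called 2 and 0 (6.13% and 5.7%). All 8 log2 fold changes were below 0, as were 49.8% of those of all genes tested, with medians of -0.14 and 0.00114. Below 0 were 7, 6 and 7 of the 8 without siEHMT1 replicate 1, siScr replicate 2 and siScr replicate 3, respectively. The members were chosen with earlier results of these data known. Their shares, here and below, describe them and are not evidence about the families.

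**Figure D1:**
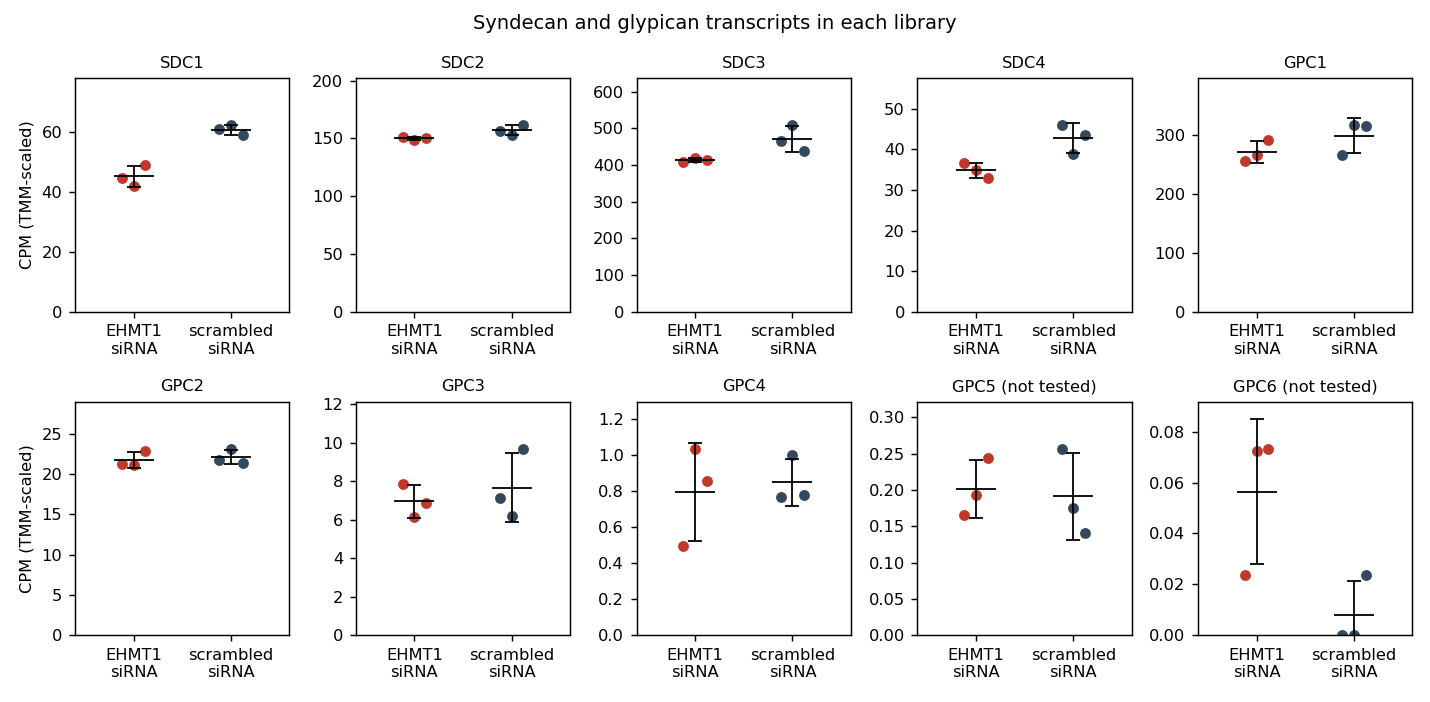
CPM of each member in the 3 EHMT1 siRNA libraries (left, red) and the 3 scrambled siRNA libraries (right, dark), each panel with its own axis from 0; horizontal lines and bars give the mean and SD. The EHMT1 siRNA points of SDC1 to SDC4 lie below all scrambled siRNA points of the same gene, while those of GPC1 to GPC5 overlap.

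SDC1 (ENSG00000115884), the syndecan that is typical of epithelia and plasma cells and binds growth factors and fibrillar collagen through its chains, had the largest change of the 8 tested members. It had 44.5, 42.0 and 49.1 CPM in the siEHMT1 libraries, against 61.1, 62.3 and 59.0 CPM in the siScr libraries. The groups were well apart, and siEHMT1 replicate 3 was the library closest to the controls. Means were 45.2 ± 3.60 CPM with siEHMT1 and 60.8 ± 1.70 CPM with siScr (SD, n = 3 each), and the edgeR adjusted p was 0.000442. The call of SDC1 held with any 1 library left out, with log2 fold changes of -0.49 to -0.38 and adjusted p of at most 0.00961. Without siScr replicate 2, the library that stood apart, the change was -0.42 (edgeR adjusted p = 1.38e-05).

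SDC4 (ENSG00000124145), a syndecan of focal adhesions that cooperates with integrins in binding fibronectin, was the other member that fell. It had 36.7, 34.9 and 32.9 CPM in the siEHMT1 libraries, against 46.0, 38.8 and 43.4 CPM in the siScr libraries. The gap between the groups was narrow, because siScr replicate 2 lay close to siEHMT1 replicate 1. Means were 34.8 ± 1.88 CPM with siEHMT1 and 42.8 ± 3.63 CPM with siScr (SD, n = 3 each), with an edgeR adjusted p of 0.0121. This call was lost without siEHMT1 replicate 2 (adjusted p = 0.0672) or replicate 3 (adjusted p = 0.0941), and without siScr replicate 2 the log2 fold change was -0.37 (adjusted p = 9.32e-05).

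SDC3 (ENSG00000162512), which in mouse is a syndecan of neurons and of developing muscle, was the member with the most counts, 16948 to 17383 in a siEHMT1 library and 18667 to 21751 in a siScr library. Its level was 409, 419 and 414 CPM with siEHMT1, against 465, 509 and 439.6 CPM with siScr. The siEHMT1 libraries were close together and all lower, while the siScr libraries were spread out. The log2 fold change was -0.19 (95% interval -0.31 to -0.06, edgeR adjusted p = 0.0528), so at the 0.05 threshold SDC3 did not pass. It passed in DESeq2 (adjusted p = 0.0176), with no filter on low counts (adjusted p = 0.0391), in the major strand column, the one that holds most reads (adjusted p = 0.0469), and without siScr replicate 2 (adjusted p = 0.0422) or replicate 3 (adjusted p = 0.0166). Without siEHMT1 replicate 1, 2 or 3 it did not pass (edgeR adjusted p = 0.208, 0.1685 and 0.192). Nor did it without siScr replicate 1 (0.0565), with upper quartile scaling (0.0716) or in the minor strand column (0.435).

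SDC2 (ENSG00000169439), a syndecan of fibroblasts and other mesenchymal cells, had 151.3, 148.8 and 150.7 CPM in the siEHMT1 libraries, against 156.5, 153.2 and 161.6 CPM in the siScr libraries. The siEHMT1 libraries were again all lower, but by little. The log2 fold change was -0.06 (95% interval -0.18 to 0.05, edgeR adjusted p = 0.499), an interval that holds 0. The 4 syndecans were the only tested members whose groups of libraries did not overlap, 4 of 8, where 15.5% of all genes tested had every siEHMT1 library below every siScr library. For every syndecan the exact permutation test (two-sided) on log2 CPM gave p = 0.1, which is the smallest value that 3 libraries against 3 can give.

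The inner tails show what the syndecans share. The last 84 coding bases before the stop codon are given for 3 of them, from GENCODE release 29 transcripts on GRCh38, 5′ to 3′, because this stretch encodes the end of the tail to which PDZ adaptors such as SDCBP and GIPC1 bind. Capitals mark the last 12 bases, which encode the same 4 residues in all 3 (glutamate, phenylalanine, tyrosine, alanine), the PDZ-binding end.
SDC1: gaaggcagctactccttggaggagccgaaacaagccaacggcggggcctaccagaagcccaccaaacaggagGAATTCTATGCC
SDC3: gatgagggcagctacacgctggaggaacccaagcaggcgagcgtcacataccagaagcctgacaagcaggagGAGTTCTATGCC
SDC4: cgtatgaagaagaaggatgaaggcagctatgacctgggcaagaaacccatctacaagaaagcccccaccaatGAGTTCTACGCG
Position by position and without alignment, SDC1 and SDC3 had the same base at 49 of the 84 positions, SDC1 and SDC4 at 27, and SDC3 and SDC4 at 29. Shared stretches can lie at shifted positions, as the run ggcagcta does in all 3. Such stretches are missed here, so these counts do not measure how alike the tails are. Across whole transcripts the longest run of identical bases between any 2 of the 10 members was 10 to 18 bases over the 45 pairs, so no member is a near-identical copy of another.

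Among the glypicans no transcript passed the test. GPC1 (ENSG00000063660), a glypican of many adult tissues that binds FGF2, was by far the most abundant. It had 256, 266 and 291 CPM in the siEHMT1 libraries, against 265, 317 and 315 CPM in the siScr libraries. The groups overlapped, because siScr replicate 1 lay within the siEHMT1 range. Its log2 fold change was -0.14 (95% interval -0.29 to 0.01, edgeR adjusted p = 0.229), and without siScr replicate 1 it was -0.22 and passed (adjusted p = 0.0297).

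GPC2 (ENSG00000213420), a glypican of the developing nervous system and of neuroblastoma, lay far below GPC1. Its libraries were at 21.2, 21.1 and 22.8 CPM with siEHMT1, against 21.8, 23.1 and 21.4 CPM with siScr. The log2 fold change of GPC2 was -0.02 with a 95% interval of -0.18 to 0.13 (edgeR adjusted p = 0.872), and with siScr replicate 2 left out it was 0.00357, above 0. GPC3 (ENSG00000147257), a glypican of the embryo that restrains Hedgehog signalling and is lost in an overgrowth syndrome, lay lower. It had 7.85, 6.15 and 6.88 CPM with siEHMT1, against 7.12, 6.21 and 9.68 CPM with siScr. The ranges of GPC3 overlapped and siScr replicate 3 alone was high: the log2 fold change was -0.14 (95% interval -0.44 to 0.16, edgeR adjusted p = 0.596) and turned to 0.06 without that library.

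The last 3 glypicans were near the limit of detection. GPC4 (ENSG00000076716), which modulates Wnt and FGF signalling, had 21, 43 and 35 counts in the siEHMT1 libraries, against 36, 40 and 33 in the siScr libraries, and its log2 fold change of -0.09 had a 95% interval of -0.73 to 0.55 (edgeR adjusted p = 0.888). That direction turned without siEHMT1 replicate 1 (0.16) or siScr replicate 2 (0.03). GPC5 (ENSG00000179399), a glypican of brain and some tumours, had 7, 8 and 10 counts with siEHMT1, against 12, 7 and 6 with siScr. GPC6 (ENSG00000183098), its neighbour on chromosome 13, had 1, 3 and 3 counts with siEHMT1 and 0, 0 and 1 with siScr, 7 against 1 in sum. The upper limit that 0 counts allow, 3 counts, was worth between 0.0635 and 0.0738 CPM depending on the library (counting error only), and GPC6 averaged less than this in both groups, so no fold change is given for it. For GPC4, GPC5 and GPC6 no difference was detectable at this depth.

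**Figure D2:**
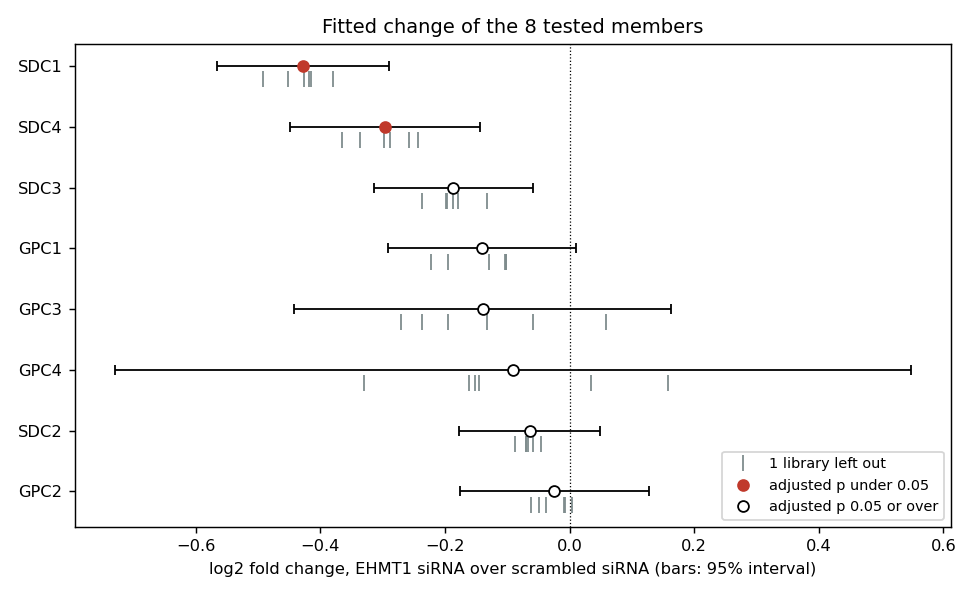
Log2 fold change (EHMT1 siRNA over scrambled siRNA) of the 8 tested members with its 95% interval; filled points passed an adjusted p of 0.05, open points did not, and grey ticks give the value with 1 library left out. All 8 points lie below 0, the intervals of SDC1, SDC4 and SDC3 end below 0, and the ticks of GPC2, GPC3 and GPC4 fall on both sides of 0.

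Levels of different genes were compared per length, as CPM per kb of annotated exon. In the siEHMT1 libraries SDC3 led with 58.6 ± 0.688 CPM per kb, followed by GPC1 with 41.6 ± 2.78, SDC2 with 33.1 ± 0.288, SDC4 with 13.3 ± 0.719, SDC1 with 12.6 ± 1.00, GPC2 with 5.68 ± 0.249 and GPC3 with 2.57 ± 0.316 CPM per kb (SD, n = 3). GPC4 at 0.161, GPC5 at 0.0567 and GPC6 at 0.00872 CPM per kb came last. Libraries of SDC4 and SDC1 overlapped in these levels, and those of no other neighbours in the order did. In the siScr libraries SDC3 led with 66.7 ± 4.98 CPM per kb, followed by GPC1 with 45.9 ± 4.47, SDC2 with 34.6 ± 0.930, SDC1 with 16.9 ± 0.471, SDC4 with 16.4 ± 1.39, GPC2 with 5.78 ± 0.236 and GPC3 with 2.83 ± 0.664 CPM per kb (SD, n = 3). The last places were again held by GPC4 at 0.171, GPC5 at 0.0539 and GPC6 at 0.00121 CPM per kb, and SDC1 and SDC4, here in the opposite order, were again the sole neighbours that overlapped. The order of SDC3 and GPC1 depended on the length used: per kb of the longest annotated transcript, an alternative chosen after the data were seen, GPC1 came before SDC3, at 73.0 against 64.8 CPM per kb with siEHMT1 and 80.5 against 73.7 CPM per kb with siScr.

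**Figure D3:**
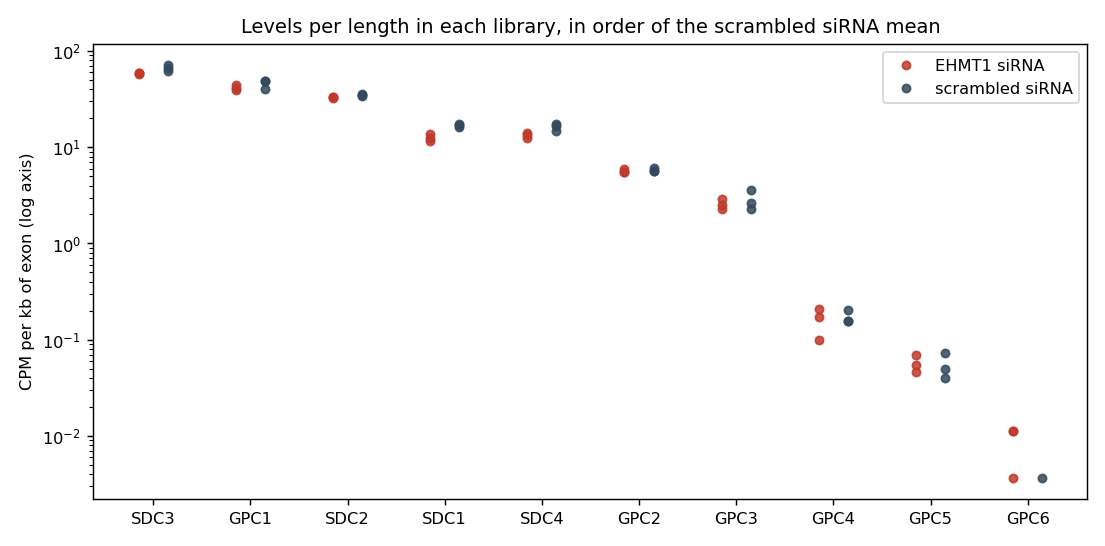
CPM per kb of annotated exon (log axis) of each member in the EHMT1 siRNA libraries (red, left of each pair) and the scrambled siRNA libraries (dark), ordered by the scrambled siRNA mean; the 2 scrambled siRNA libraries with 0 counts of GPC6 are not drawn. Levels run from 66.7 CPM per kb for SDC3 to 0.00121 CPM per kb for GPC6 in the scrambled siRNA mean, and from SDC3 to GPC5 the groups lie close together at each gene.

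Summed over the family, the 4 syndecans came to 117.7, 117.1 and 118.0 CPM per kb in the siEHMT1 libraries, against 134.9, 138.0 and 130.8 CPM per kb in the siScr libraries. The siEHMT1 mean was 87.4% of the siScr mean and the libraries did not overlap. No test was run on the sum, which depends on the lengths used. Its largest part was SDC3, which did not pass the test, at 58.6 CPM per kb with siEHMT1 and 66.7 with siScr. The 6 glypicans summed to 50.1 ± 2.96 CPM per kb with siEHMT1 and 54.7 ± 4.72 CPM per kb with siScr (SD, n = 3 each), 91.5% of the siScr mean, with overlapping libraries. SDC1 made up 7.49 ± 0.470% of the summed level of all 10 genes with siEHMT1 and 8.94 ± 0.275% with siScr. The share of SDC2 was 19.8 ± 0.351% with siEHMT1 and 18.3 ± 0.872% with siScr (SD, n = 3 each). This was a larger share of a smaller sum, as the level of SDC2 itself was 33.1 CPM per kb with siEHMT1 and 34.6 with siScr. The syndecans together held 70.1 ± 1.19% of the sum with siEHMT1 and 71.1 ± 1.99% with siScr.

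The starts of the genes that fell are shown because SDC1 and SDC4 moved in the same direction, to let their proximal promoters be set side by side. RefSeq lists 2 starts for SDC1, and counts per gene do not tell them apart. Each sequence runs 5′ to 3′ on the gene's strand from 250 bases before the start to 50 bases after it (RefSeq, GRCh38.p14). Capitals mark E-boxes (CANNTG on both strands), the core bound by basic helix-loop-helix factors such as MYOD1, and the letters TATAA on the given strand. The SDC1 entries lie at chr2:20225426-20225725 and chr2:20225081-20225380 and the SDC4 entry at chr20:45348375-45348674, all on the minus strand.
SDC1, upstream start: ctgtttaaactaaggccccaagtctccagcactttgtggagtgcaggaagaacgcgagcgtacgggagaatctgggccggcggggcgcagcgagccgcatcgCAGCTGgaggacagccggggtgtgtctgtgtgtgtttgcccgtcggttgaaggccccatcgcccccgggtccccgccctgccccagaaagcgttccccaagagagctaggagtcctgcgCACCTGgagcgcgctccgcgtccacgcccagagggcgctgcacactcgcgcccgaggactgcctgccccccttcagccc
SDC1, downstream start: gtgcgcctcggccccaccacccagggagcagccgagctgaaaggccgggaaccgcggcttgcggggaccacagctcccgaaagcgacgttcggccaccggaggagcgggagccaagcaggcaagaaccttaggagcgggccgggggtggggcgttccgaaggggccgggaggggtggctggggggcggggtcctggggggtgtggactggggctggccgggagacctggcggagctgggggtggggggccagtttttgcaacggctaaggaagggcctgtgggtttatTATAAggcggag
SDC4: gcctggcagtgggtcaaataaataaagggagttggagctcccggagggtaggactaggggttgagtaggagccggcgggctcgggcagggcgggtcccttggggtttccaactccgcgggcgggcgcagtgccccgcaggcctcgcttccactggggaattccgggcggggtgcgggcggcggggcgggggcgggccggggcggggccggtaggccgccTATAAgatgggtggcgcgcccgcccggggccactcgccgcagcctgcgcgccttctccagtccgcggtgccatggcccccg
The upstream SDC1 entry held 2 E-boxes, CAGCTG and CACCTG, and no TATAA, while the downstream entry and that of SDC4 held no E-box and 1 TATAA each, which begins 38 bases after the start in SDC1 and 31 before it in SDC4. Of all 35116 promoters of this length, 68.7% held an E-box and 14.8% held TATAA. The letters ACAAT (both strands), the core of the motif that SOX factors bind, were in none of these entries and in 27.4% of all promoters. Of the 8 members with an entry, ACAAT was in those of GPC2 and GPC6. The GC box GGGCGG (both strands, matches may overlap) was found 8 times in the SDC4 entry, once in each SDC1 entry, 6 times in that of SDC3 and 4 times in that of GPC1, and 45.0% of all promoters held it. These are matches of letters only.

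The members are spread over 7 chromosomes, with SDC1 and GPC1 both on chromosome 2, GPC3 next to GPC4 on X and GPC5 next to GPC6 on chromosome 13. None of the nearest tested protein-coding genes beside SDC1 and SDC4 passed the edgeR test: PUM2 and LAPTM4A beside SDC1 had log2 fold changes of 0.05 and 0.26 (edgeR adjusted p = 0.678 and 0.0568) and SYS1 and MATN4 beside SDC4 of 0.05 and 0.36 (adjusted p = 0.691 and 0.6999). LAPTM4A passed in DESeq2 (adjusted p = 0.0248), in limma-voom (0.0497), with upper quartile scaling (0.0436), with no filter (0.000607) and without siScr replicate 1 (0.0189). Of the 16 neighbours outside the families, 1 rose and 1 fell, near the shares of all genes tested (5.81% rose and 6.54% fell). GAL3ST4, a sulfotransferase gene 0.856 kb from GPC2, rose by 0.39 on the log2 scale (adjusted p = 0.0099, lost without siEHMT1 replicate 2 or 3), and HS6ST2 beside GPC4, itself a heparan sulfate enzyme and one of the pathway genes, fell. No annotated gene shared exon bases with a tested member, and 86.7% to 96.1% of the strand counts of the tested members lay in the same strand column.

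The genes whose levels ran most alike with the members that fell, across the 6 libraries, were picked by correlation. For SDC1 they were CCAR2, NRG1 and DNAAF2, with a Pearson r of log2 CPM of 0.997, 0.997 and 0.994, and for SDC4 ZNF675, ZNF738 and PTBP2, with 0.997, 0.996 and 0.996. These were the highest of 11575 protein-coding genes compared over only 6 libraries, which share the difference between the groups.

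Genes around the proteoglycans changed in both directions. They were grouped in 10 lists: heparan and chondroitin sulfate enzymes, editing and shedding enzymes, cytoplasmic partners of syndecans, other proteoglycans and heparin-binding ligands. The lists were chosen with earlier results of these data known, and GDPD5 was added after its value was seen. Shares of called genes in them therefore describe the lists and are not evidence about the pathway. Of 113 tested, 14 rose (12.4%) and 12 fell (10.6%), beside 5.81% and 6.54% of all genes tested, with a median log2 fold change of 0.00944. DESeq2, with an adjusted p for 102 of them, called 13 risen and 12 fallen, limma-voom 11 and 12. Both endosulfatases fell. Of the tested cytoplasmic partners of syndecans, SDCBP and SDCBP2 rose, GIPC1 and TIAM1 fell, and the others, CASK among them, did not pass. These counts moved with single libraries: leaving out single libraries gave 4 to 20 risen and 7 to 17 fallen genes, the fewest risen without siEHMT1 replicate 2, the fewest fallen without siEHMT1 replicate 2 or 3, and the most of both without siScr replicate 2.

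Of 6 tested enzymes of the linker that joins the chain to the core protein, 1 rose and 0 fell, also by DESeq2 and limma-voom, and no further gene fell at an unadjusted p under 0.05. B3GAT3, which adds the glucuronic acid that completes the linker, rose by 0.27 on the log2 scale (edgeR adjusted p = 0.0121), to 41.7 ± 1.58 CPM with siEHMT1, against 34.7 ± 1.80 CPM with siScr (SD, n = 3 each). PXYLP1, XYLT2 and B4GALT7 lay between -0.04 and 0.03. Of 5 polymerisation genes, EXT2 fell and 0 rose (1 rose and 2 fell at an unadjusted p under 0.05; DESeq2 and limma-voom called 0 and 1). EXT2, which with EXT1 forms the heparan sulfate polymerase, had 73.1, 72.5 and 69.0 CPM with siEHMT1, against 84.9, 80.9 and 87.6 CPM with siScr, a log2 fold change of -0.24 (edgeR adjusted p = 0.0115). EXT1 at -0.14, EXTL2 at 0.21 and EXTL3 at 0.07 did not pass, though EXTL2 passed with no filter (adjusted p = 0.0212) and without siScr replicate 1 (0.0369). The call of B3GAT3 was lost without siEHMT1 replicate 1 or 3 and that of EXT2 without siEHMT1 replicate 2 or 3.

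Of 8 tested genes that epimerise or sulfate the chain, 1 rose and 1 fell. GLCE, the epimerase that turns glucuronic into iduronic acid, rose by 0.23 (edgeR adjusted p = 0.0366), and HS6ST2, a 6-O-sulfotransferase, had a log2 fold change of -0.19 (adjusted p = 0.0404). HS6ST1, the related enzyme, was at -0.16 and HS3ST5 at 0.30, and neither passed, though HS6ST1 did without siScr replicate 1 (adjusted p = 0.0346). The calls of GLCE and HS6ST2 were lost without any 1 siEHMT1 library or siScr replicate 1, and that of HS6ST2 also without siScr replicate 3 and with upper quartile scaling (adjusted p = 0.0583). Of 10 genes that supply sugar and sulfate donors, SLC35D1, a Golgi and ER transporter of nucleotide sugars, rose by 0.43 (edgeR adjusted p = 0.00185), and UXS1, which makes the xylose donor for the linker, was at -0.26 and fell (adjusted p = 0.00742, lost without siEHMT1 replicate 2). UGDH at 0.13 and SLC35B3 at 0.20 did not pass.

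Chondroitin and dermatan sulfate enzymes build and modify chains that stand on the same linker. Of 14 tested, 3 rose and 1 fell: CSGALNACT2, which starts a chondroitin chain, by 0.31 (edgeR adjusted p = 0.00585), CHPF2, a polymerising factor, by 0.21 (adjusted p = 0.019) and CHST14, a dermatan sulfotransferase, by 0.20 (adjusted p = 0.0483), while DSE, the dermatan sulfate epimerase, was at -0.27 (adjusted p = 0.00585). The call of CHST14 was lost in limma-voom (adjusted p = 0.0533), with no filter (0.0589), in the major strand column (0.0534) and when any 1 library but siScr replicate 2 was left out, that of CHPF2 without any 1 siEHMT1 library, that of CSGALNACT2 without siEHMT1 replicate 2 and that of DSE without siEHMT1 replicate 3.

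After synthesis the chains are trimmed outside the cell and the core proteins are shed. Of 14 tested genes of this kind, 3 rose and 2 fell. SULF1 and SULF2, the enzymes that remove 6-O-sulfate from finished chains, were the genes that fell. SULF1 had 136.1, 138.8 and 131.4 CPM with siEHMT1, against 174, 190.1 and 158 CPM with siScr, a log2 fold change of -0.36 (SE 0.065, edgeR adjusted p = 0.00162). SULF2 had 32.6, 34.4 and 32.3 CPM with siEHMT1, against 40.1, 46.0 and 39.3 CPM with siScr, a log2 fold change of -0.34 (SE 0.071, adjusted p = 0.00489). Both held with any 1 library left out, and in both siScr replicate 2 was the highest library. MMP14, a membrane metalloprotease that can cleave SDC1, rose by 0.27 (adjusted p = 0.006), FURIN, a convertase that processes GPC3, by 0.27 (adjusted p = 0.0206), and GDPD5, a phosphodiesterase that cuts GPI anchors (named after its value was seen), by 0.48 (adjusted p = 0.0422). The call of MMP14 was lost without siEHMT1 replicate 2, that of FURIN when any 1 library but siScr replicate 2 was left out, and that of GDPD5 without any 1 siEHMT1 library or siScr replicate 1 and in the major strand column (adjusted p = 0.064).

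Of 17 tested cytoplasmic partners of syndecans, 2 rose and 2 fell. GIPC1, also called synectin, a PDZ adaptor that binds the tail of SDC4, had 42.0, 35.5 and 39.5 CPM with siEHMT1, against 92.4, 111.8 and 99.6 CPM with siScr, a log2 fold change of -1.38 (SE 0.077, edgeR adjusted p = 1.17e-08). SDCBP, or syntenin, which binds the shared end of all syndecans and sorts them to exosomes, had 139.6, 136.8 and 141.1 CPM with siEHMT1, against 118, 102.5 and 113.7 CPM with siScr, and rose by 0.32 (SE 0.061, adjusted p = 0.0025). TIAM1, an exchange factor for RAC1 that binds SDC1, was at -0.30 and fell (adjusted p = 0.00486). These 3 calls held with any 1 library left out. SDCBP2 rose by 1.13 (adjusted p = 0.0452) at under 1 CPM, a call that DESeq2 gave no adjusted p for. It was lost in limma-voom (adjusted p = 0.0513), in the major strand column (adjusted p = 0.101) and when any 1 library but siScr replicate 2 was left out. The other 13 partners did not pass.

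Other proteoglycans and heparin-binding ligands completed the lists. Of 10 tested other heparan sulfate proteoglycans, TGFBR3 (betaglycan, a co-receptor for TGF-beta) was at -0.41 and fell (edgeR adjusted p = 0.0154), and NRP1, a co-receptor for semaphorins and VEGF, rose by 0.24 (adjusted p = 0.0467). NRP2 at 0.16 and CD44 at -0.13 did not pass, though NRP2 passed with upper quartile scaling (adjusted p = 0.0413) and without siScr replicate 1 (0.0368) or 2 (0.0275). Of 5 tested chondroitin or keratan sulfate proteoglycans, VCAN (versican) was at -0.18 and fell (adjusted p = 0.0402), and 0 rose (2 rose and 1 fell at an unadjusted p under 0.05; DESeq2 and limma-voom called 0 and 1). BCAN at 0.43, BGN at 0.23 and LUM at 0.30 did not pass, though BGN passed with no filter (adjusted p = 0.0037) and, like BCAN, without siScr replicate 2 (0.0143 and 0.0193). Of 24 tested ligands, THBS1 (thrombospondin) rose by 0.51 (adjusted p = 0.00387) and FGF1 by 0.61 (adjusted p = 0.0434), while PTN (pleiotrophin), a ligand of SDC3, was at -0.51 (adjusted p = 0.00577) and GDF11 at -0.27 (adjusted p = 0.00791), and both fell. With 1 library left out, the calls of TGFBR3, NRP1, FGF1 and VCAN were lost in 3, 4, 4 and 5 of 6 fits, each time including the fit without siEHMT1 replicate 2, and that of GDF11 was lost without siEHMT1 replicate 1. The call of FGF1 was also lost in DESeq2 (adjusted p = 0.0584) and limma-voom (0.0563), that of VCAN with upper quartile scaling (0.0598) and that of NRP1 in the major strand column (0.0966).

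**Figure D4:**
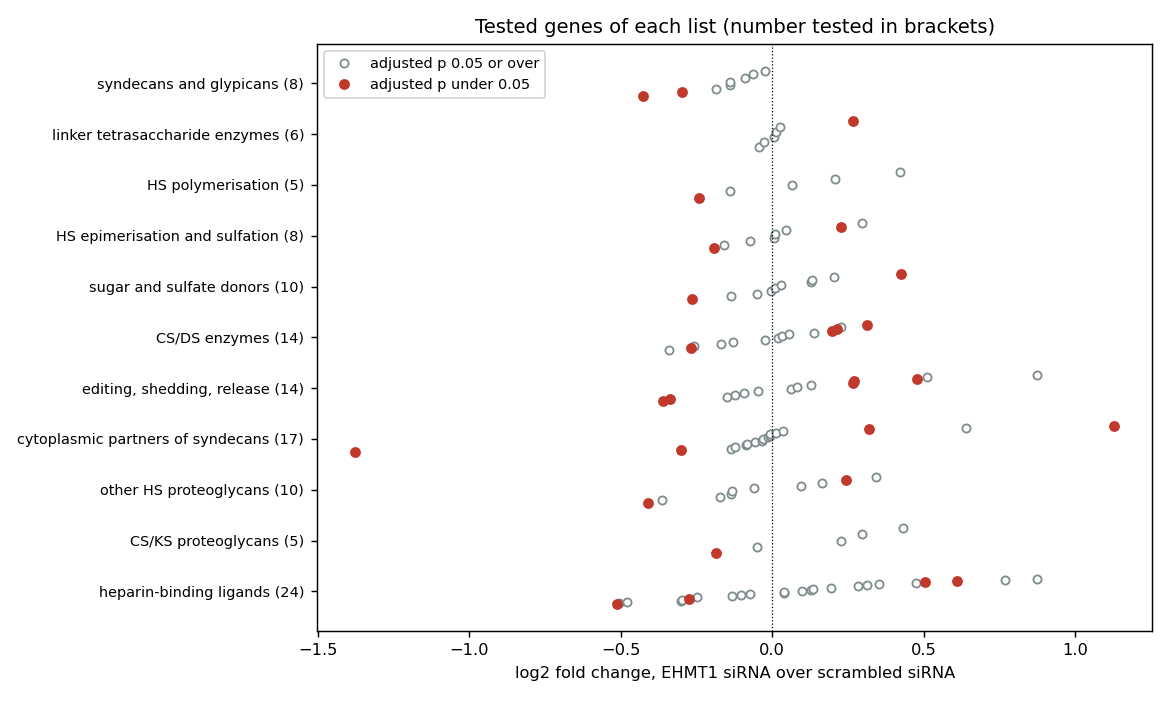
Log2 fold change (EHMT1 siRNA over scrambled siRNA) of every tested gene in each list; filled points passed an adjusted p of 0.05 and open points did not, and HS, CS, DS and KS stand for heparan, chondroitin, dermatan and keratan sulfate. Points of the syndecan and glypican list lie between -0.43 and -0.02, while each list below it has points on both sides of 0, with GIPC1 at -1.38 and SDCBP2 at 1.13 as the extremes.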

How the data were processed

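Per the labels' protocols, mRNA was bound to poly-T beads, and an NEBNext Ultra kit was used for the libraries. Named in the submitters' processing notes are build hg19 and the tools STAR 2.5, HTSeq 0.6.1, CASAVA, bcl2fastq and DESeq2. The deposited values are raw counts per gene made by the authors, with no normalization, in STAR's layout with an unstranded column and 1 per strand. The identifiers are later than hg19 (58352 of 61552 in GENCODE release 29, 61399 in the table of gene names), so no gene coordinates are taken from the files.

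Reads naming no gene, 20.0% to 21.2%, were left out. Tests ran on the unstranded column with edgeR 4.0.16 in R 4.3.3. Low genes were dropped by filterByExpr with a minimum count of 10, libraries were scaled by TMM, the quasi-likelihood fit was robust with the group as its sole term, and p-values were adjusted over all tested genes by Benjamini-Hochberg, with calls at 0.05. SEs are the absolute log2 fold change over the square root of F. The alternatives, among them DESeq2 1.42.0 and limma 3.58.1 (voom), stand in the closing section. Whether replicates were separate cultures is not in the labels; the p-values therefore rest on a spread between libraries that may be technical. Unstranded counts cannot tell a gene from an antisense partner.

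Members and lists were chosen with earlier results of these data known. Named genes were all members, EHMT1, SOX8, up to 4 genes of each list with the smallest adjusted p, the 3 genes most correlated with each called member (average log2 CPM of at least 1) and each member's nearest tested neighbours. The neighbours of SDC3 are not reported here.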

Additional observations from a re-analysis of the deposited data

How the results depend on the processing

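The fall of SDC1 passed the test in each fit but 1, that on strand column 3, which holds the smaller part of the reads (log2 fold change -0.33, adjusted p = 0.325). Of the syndecans and glypicans, 2 fell in the main analysis, 0 in strand column 3, 1 at an adjusted p threshold of 0.01 and 1 to 3 with 1 library left out. SDC4 was lost in that column and without siEHMT1 replicate 2 or 3. Pathway genes that rose and fell numbered 2 and 1 in strand column 3, 5 and 8 at the 0.01 threshold, and 4 to 20 and 7 to 17 with 1 library left out. Over all genes, 1084 rose and 1220 fell, but 90 and 87 in strand column 3, 492 and 525 at the 0.01 threshold, and 452 to 1625 and 484 to 1923 with 1 library left out. In strand column 3, DSE was at 0.075 and NRP1 at -0.11, turned from their main direction, but neither passed the test in that column. The cause was not tested. EHMT1 and SOX8 kept their direction and call in every fit. The call of FURIN was lost when any 1 library but siScr replicate 2 was left out.

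Whether equal replicate numbers pair the libraries is not given in the labels and was not settled. Deviations from the group means correlated at 0.0432, 0.00763 and 0.0221 for equal numbers and at -0.0393 to 0.017 for unequal ones, all near 0. Each siEHMT1 library correlated best with the siScr library of its own number, while siScr replicate 2 correlated better with siEHMT1 replicate 3. With a replicate block, 3 members fell (SDC3 added, adjusted p = 0.0211), LAPTM4A, BGN, EXTL2 and NRP2 passed (0.00212, 0.00673, 0.0205 and 0.0483), 19 pathway genes rose and 13 fell, and 1471 genes rose and 1631 fell. Over the fits other than the main one, members kept their side of the threshold 106 times, gained a call 7 times and lost one 4 times. The other named genes kept their side 788 times, gained a call 23 times and lost one with the same direction 104 times, besides DSE and NRP1 in strand column 3. At 21 to 43 counts per library, GPC4 had an interval too wide to show small changes, and GPC5 and GPC6 were too low to test.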
